A study of Mus musculus with 61 samples.

Results

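IL-27 added to naive CD4 T cells of C57BL/6 mice was followed here at 4 and 8 h. The comparison rests on 6 of the 61 arrays of the series, all of the HT_MG-430A type, which numbered 52. The 3 IL27 arrays are titled 4, 8 and 8d, and each was set beside the ctrl array of the same number and suffix. Both arms were stimulated with an antibody to CD3 and another that the labels spell anti-CD8, each at 1 µg/ml, and the IL27 arm is the one whose titles carry the name of the cytokine, given at 25 ng/ml. All samples, ctrl included, share a single protocol text that names IL-27, so the arm was read from the title, and every source name speaks of Tr1 cells made in culture. The time numbers have no unit in the labels and are taken as hours, and the labels do not explain the d. A further IL27 and ctrl pair at 4 h on Mouse430A_2 arrays serves as a check within its own table.

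IL-27 is a cytokine of the IL-12 family that binds a receptor of the IL-27 receptor chain (Il27ra) and gp130 (Il6st). The receptor works through JAK kinases, which phosphorylate STAT factors, and in CD4 T cells it is known for switching on interferon-type genes and the Th1 factor T-bet, for countering Th2 genes, and for steering cells to the IL-10-producing type 1 regulatory (Tr1) state. SOCS proteins are feedback inhibitors of the same pathway.

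Values are array intensities on a linear scale, and differences are IL27 minus ctrl of log2(intensity + 32), which understates changes of dim genes. The medians of the 6 arrays lay between 31.0 and 32.4 units, and each array correlated at 0.985 or more with some other HT_MG-430A array over the genes tested. Cd3e (371.8 to 684.4 over the 6 arrays) and Cd4 (129.1 to 238.4) were measured above the array medians on all 6, while Cd8a (11.1 to 19.2), Cd79a, Cd14 and Ncr1 were below them on all 6. Other markers of these cell types were bright enough to be tested: Cd8b1, 3 B-cell, 4 myeloid and 1 NK-cell marker. Cd8a and Cd8b1 summed to 103.8 to 135.9 in IL27 cells and 117.1 to 133.1 in ctrl cells. RNA of such cells is thus not shown to be absent. Whether arrays of an arm are separate cultures is not stated, so a p-value measures the spread between arrays, which may be technical. The main fit gives each time window 1 IL-27 effect. Its spread therefore also holds how that effect varied between the times of a window, in later windows too. Precision is limited by how few arrays there are. The cultures are bulk samples, in which fewer cells of a type and less RNA per cell cannot be told apart.

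Across 6623 genes, 37 (0.559%) were called at a limma adjusted p under 0.05 over the 4 and 8 h arrays, 27 higher (0.408%) and 10 lower (0.151%) with IL-27. Of these, 7 were higher and 1 was lower by 2-fold or more, and each of the 37 had the same sign in the 3 pairs. The genes that rose most were Tbx21, Il12rb1, Egln3, Batf, Serpinb9, Ddr1 and Etv6, and the one that fell most was Xcl1. For 22 of the 37 the 3 IL27 arrays and the 3 ctrl arrays did not overlap, against 124 genes (1.87%) with all IL27 arrays above and 114 (1.72%) with all below among all genes tested. The median difference over all genes tested was 0.018, with 3686 of 6623 positive, and 533 genes had an unadjusted p under 0.05. With the 6 arrays fitted alone, without the spread of the other 46, no gene was called (lowest adjusted p of the 37, 0.0774), while 241 had an unadjusted p under 0.05. Neither this fit nor the main one pairs arrays by suffix. With the suffix as a replicate block, the 6 arrays alone called 98 genes, 31 of the 37 among them. The main count of 37 was 23 without either 4 h array, 235 without the ctrl array titled 8 and 21 without the 8d pair.

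**Figure D1:**
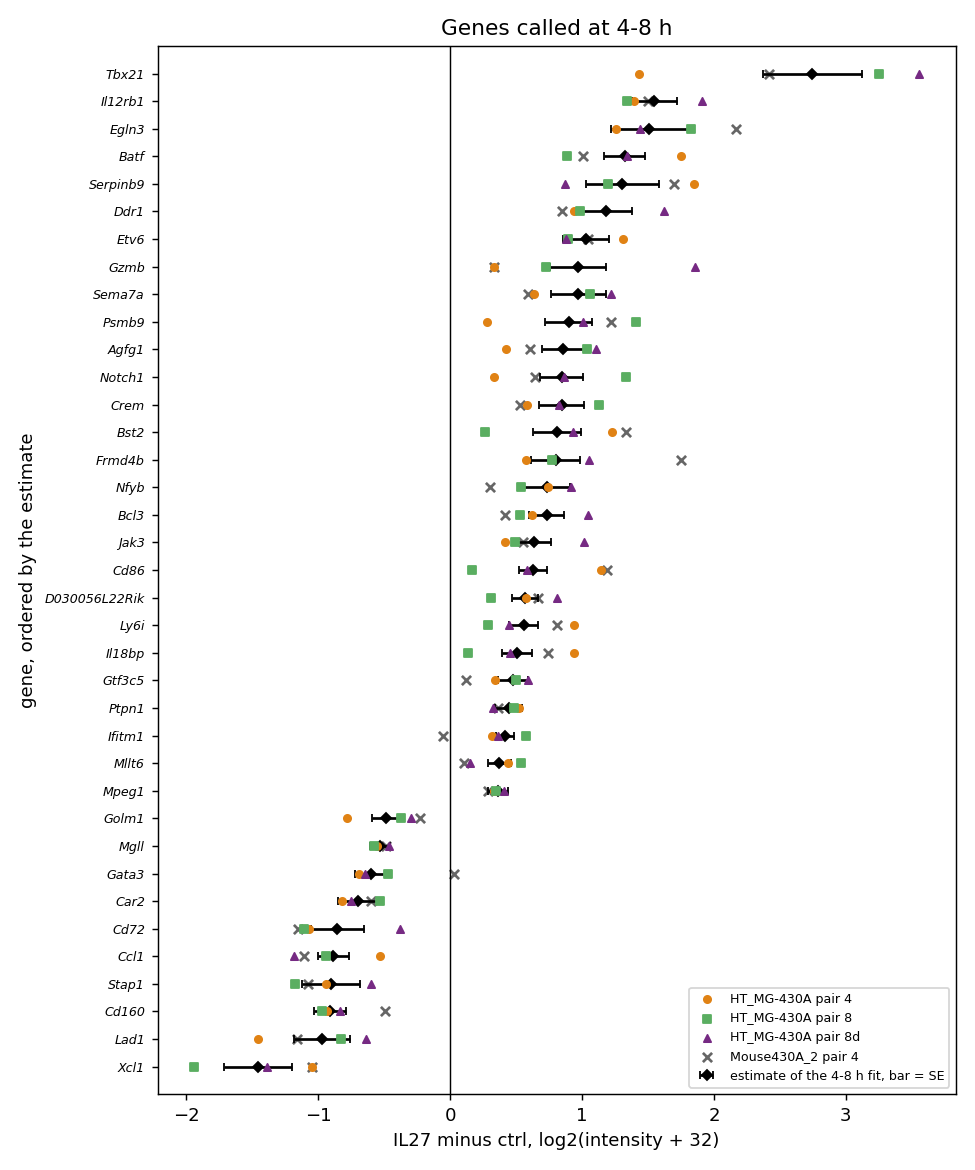
The 37 genes called at 4-8 h, from the highest estimate at the top to the lowest. The x axis is IL27 minus ctrl as a log2(intensity + 32) difference, diamonds are the estimates of the fit with their SE, coloured marks are the 3 HT_MG-430A pairs and crosses the Mouse430A_2 pair. All coloured marks of a gene lie on 1 side of 0, with crosses on the other side for Ifitm1 and Gata3.

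Tbx21, Batf and Etv6 encode transcription factors and were among the 7 genes higher by 2-fold or more. Tbx21, which encodes T-bet, the factor that directs Th1 differentiation, read 1736, 1822 and 1769.6 in IL27 cells, against 622, 163 and 121 in ctrl cells (at 4, 8 and 8d, the order kept below). The IL27 arrays were nearly level and the ctrl arrays were not: the 4 h ctrl array held several times the intensity of both 8 h ones. The difference was 2.75 ± 0.38 (SE, adjusted p = 5.32e-05). Batf, an AP-1 factor that pairs with IRF proteins, had 501, 323 and 374 in IL27 cells, against 126, 160.2 and 129 in ctrl cells, with no overlap and a difference of 1.32 ± 0.15 (SE, adjusted p = 4.66e-06). Etv6, an ETS-family repressor, read 218, 161 and 128 in IL27 cells, against 69.0, 71.7 and 55.1 in ctrl cells, again apart on all arrays (1.03 ± 0.17 SE, adjusted p = 0.00122). Its call was lost without either 4 h array (adjusted p = 0.0700 without the ctrl one).

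Further regulators rose by less. Bcl3, an IkB-like cofactor and STAT3 target, had 499, 250.4 and 434 in IL27 cells, against 313, 163 and 194 in ctrl cells (0.73 ± 0.13 SE, adjusted p = 0.00286). One ctrl array, that of 4 h, lay above the lowest IL27 array. Crem, a cAMP-responsive factor, Nfyb, a subunit of the CCAAT-binding NF-Y complex, and Notch1, a receptor whose cleaved form acts in the nucleus, had differences of 0.84 ± 0.17, 0.73 ± 0.18 and 0.85 ± 0.16. The 3 probe sets of Crem gave differences from 0.078 to 0.90. The general factors Mllt6 (0.37 ± 0.090) and Gtf3c5 (0.48 ± 0.12), a TFIIIC subunit, were also called. Of 9 leave-outs of an array or a pair, the call was lost in 2 for Bcl3, 4 for Crem, 7 for Nfyb, 3 for Notch1, 7 for Mllt6 and 8 for Gtf3c5. With 1 array per arm at 4 h, 3 of the 9 drop the same 4 h comparison and give the same difference. A gene that leans on 4 h can thus count 3 losses for it, here and below. Gata3, the factor that directs Th2 differentiation, moved the other way, at 107, 60.7 and 66.5 in IL27 cells, against 191, 96.4 and 122 in ctrl cells. It was lower in every pair (-0.60 ± 0.12 SE, adjusted p = 0.00798), although its 4 h IL27 array exceeded the 8 h ctrl array. Its call was lost in 5 of the 9, with an adjusted p of 0.165 without the 4 h pair. Among 11 helper lineage factors tested, Tbx21 rose, Gata3 fell and the other 9 did not pass the test, Rora at -0.52 and Id2 at 0.83 included, with a list median of -0.054 against 0.018 for all genes.

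Of the 16 genes tested for the IL-27 receptor and its proximal signalling, 1 was called, against 0.559% of all genes tested. Il12rb1, the chain shared by the IL-12 and IL-23 receptors, read 136, 267 and 232 in IL27 cells, against 32.005, 86.3 and 38.2 in ctrl cells. Every IL27 array lay above every ctrl array, and the difference was 1.55 ± 0.17 (SE, adjusted p = 2.96e-06). The receptor chains of IL-27 itself gave 298, 290.3 and 367 in IL27 cells, against 382, 279 and 384 in ctrl cells for Il27ra, and 1417, 517 and 511 in IL27 cells, against 874, 468 and 379 in ctrl cells for Il6st. Il27ra overlapped between arms, with a difference of -0.11, and neither chain passed the test (adjusted p = 0.903 and 0.689). Jak1 (-0.44), Jak2 (0.026), Tyk2 (-0.26), Stat2 (0.13), Stat3 (0.28), Stat4 (-0.22), Stat5a (-0.32), Stat5b (-0.17) and Stat6 (-0.10) did not pass either, and the list median was -0.024. Signalling genes outside that list were called too. Jak3, the kinase of receptors with the common gamma chain, had 103, 123 and 143 in IL27 cells, against 69.1, 78.4 and 54.9 in ctrl cells (0.64 ± 0.12 SE, adjusted p = 0.00584), without overlap. Ptpn1, a phosphatase of JAK kinases, rose by 0.44 ± 0.10. The call of Jak3 was lost in 3 of 9 leave-outs and that of Ptpn1 in 7. Il12rb2, the other IL-12 receptor chain, stayed below the array medians, at 13.5 to 15.7 in IL27 cells and 11.8 to 13.8 in ctrl cells.

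Feedback genes of the pathway were mostly not called: 1 of 15 tested rose (Bcl3, above), against 0.408% of all genes tested. A positive difference was found in 13 of the 15, against 3686 of 6623 genes tested, and the list median was 0.10. Socs3, the inhibitor that binds gp130, read 639, 226 and 657 in IL27 cells, against 483, 138 and 185 in ctrl cells. Its largest gap was in the 8d pair, and it missed the threshold (0.88 ± 0.22 SE, adjusted p = 0.0534). Socs1, an inhibitor of JAK kinases, had 1077, 388 and 529.7 in IL27 cells, against 982, 282 and 316 in ctrl cells (0.41 ± 0.22 SE, adjusted p = 0.711), with the 4 h ctrl array close to the 4 h IL27 array. Cish, Pim1, Myc and Cebpb had differences of 0.074, 0.093, 0.054 and 0.43, none called. The effects on Socs1 and Cish were smaller than at 1-2 h (-2.06 ± 0.31 and -1.18 ± 0.30, adjusted p = 0.000144 and 0.0445).

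Egln3, a prolyl hydroxylase that marks HIF factors for degradation, had 106, 171 and 112 in IL27 cells, against 25.9, 25.2 and 21.1 in ctrl cells. The ctrl arrays lay below the array medians and the IL27 arrays well above them, for a difference of 1.51 ± 0.29 (SE, adjusted p = 0.00566). Egln3 was thus bright enough to be tested through the IL27 arrays alone. Serpinb9, an inhibitor of granzyme B, read 722, 975 and 1082 in IL27 cells, against 178, 407 and 576 in ctrl cells (1.31 ± 0.28 SE, adjusted p = 0.0155), without overlap. Its call was lost without either 4 h array (1.04 without the pair, adjusted p = 0.392) and without the IL27 array titled 8d (1.34, adjusted p = 0.0519), and that of Egln3 without the pair 8 or 8d (adjusted p up to 0.0550). Gzmb, granzyme B itself, a protease of cytotoxic granules, had 49.3, 156 and 195 in IL27 cells, against 32.6, 81.5 and 30.8 in ctrl cells. Its 4 h IL27 array lay below the 8 h ctrl array, so the arms overlapped, and the difference was 0.97 ± 0.21 (SE, adjusted p = 0.0191); without the 8d pair it was 0.53 (adjusted p = 0.785).

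Sema7a, a membrane-anchored semaphorin, read 2884, 1899.6 and 1742 in IL27 cells, against 1841, 896 and 731 in ctrl cells (0.97 ± 0.21 SE, adjusted p = 0.0155). Cd86, a ligand of CD28 and CTLA-4, had 128, 41.2 and 46.4 in IL27 cells, against 40.6, 33.2 and 20.4 in ctrl cells, highest on the 4 h IL27 array (0.63 ± 0.11 SE, adjusted p = 0.00106). Ddr1, a collagen receptor, had 403 ± 8.83 in IL27 cells, against 164 ± 47.5 in ctrl cells (mean ± SD, n = 3 each), a difference of 1.18 ± 0.20; its 8 probe sets gave differences from -0.12 to 1.18, and the brightest one is reported. Agfg1, an ArfGAP-related protein with FG repeats, and Frmd4b, a FERM-domain scaffold, rose by 0.86 ± 0.16 and 0.80 ± 0.18. The 4 probe sets of Frmd4b gave differences from 0.049 to 1.04, and the 2 of Cd86 0.16 and 0.63. Il18bp, the soluble antagonist of IL-18, rose by 0.51 ± 0.11 and Ly6i, a Ly6-family surface protein, by 0.56 ± 0.11, both with the largest gap at 4 h. D030056L22Rik, also called, rose by 0.57 ± 0.10. Without either 4 h array the calls of Cd86 (0.37, adjusted p up to 0.187), Il18bp (0.30, up to 0.767) and Ly6i (0.37, up to 0.392) were lost. Of 9 leave-outs, the call was lost in 5 for Sema7a, 8 for Frmd4b, 2 for Agfg1 and 1 each for Ddr1 and D030056L22Rik.

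The genes that fell included both chemokines called. Xcl1, a chemokine for XCR1-bearing dendritic cells, read 515, 746 and 717 in IL27 cells, against 1096, 2955 and 1923 in ctrl cells. The ctrl arrays were higher at 8 h than at 4 h and the IL27 arrays stayed under all of them (-1.46 ± 0.26 SE, adjusted p = 0.00186). Ccl1, the ligand of CCR8, had 57.9, 100.2 and 78.0 in IL27 cells, against 97.9, 222 and 217 in ctrl cells (-0.88 ± 0.12 SE, adjusted p = 3.00e-05), and its 8 h IL27 array slightly exceeded the 4 h ctrl array. The other 6 of 8 chemokines tested did not pass, with Cxcl10 at 0.73, Cxcl9 at 0.32 and Ccl4 at 0.42. Lad1, an anchoring-filament protein, had 426, 1027 and 1173 in IL27 cells, against 1225, 1845 and 1842 in ctrl cells (-0.97 ± 0.21 SE, adjusted p = 0.0186), without overlap, and its adjusted p was 0.473 without the 4 h pair.

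Cd160, a receptor of the HVEM ligand, read 46.0, 33.6 and 26.8 in IL27 cells, against 117, 96.6 and 72.8 in ctrl cells. IL27 arrays all lay below ctrl arrays (-0.91 ± 0.12 SE, adjusted p = 3.10e-05), although another of its 3 probe sets gave 0.0031. Mgll, the lipase that cleaves monoacylglycerols, had 28.5, 31.9 and 40.3 in IL27 cells, against 56.7, 63.4 and 67.5 in ctrl cells, a small and even gap on its brightest probe set (-0.53 ± 0.074 SE, adjusted p = 6.29e-05). The 4 probe sets of Mgll gave differences from -1.05 to -0.066. Stap1, an adaptor protein of lymphocyte signalling, fell by 0.90 on the log2 scale, Cd72, a B-cell co-receptor, by 0.85, Car2, carbonic anhydrase 2, by 0.70, and Golm1, a Golgi membrane protein, by 0.48. Over 9 leave-outs the call was lost in 6 for Stap1 (difference -0.59 without the ctrl array titled 8), 5 for Cd72 (-0.53 without the IL27 array titled 8), 5 for Car2 and 5 for Golm1, and all 4 lost it without either 4 h array. Tbx21, Il12rb1, Batf, Xcl1, Ccl1, Cd160 and Mgll, 7 of the 37, were called under 20 of the 21 alternatives tried, all but the fit of the 6 arrays alone.

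**Figure D2:**
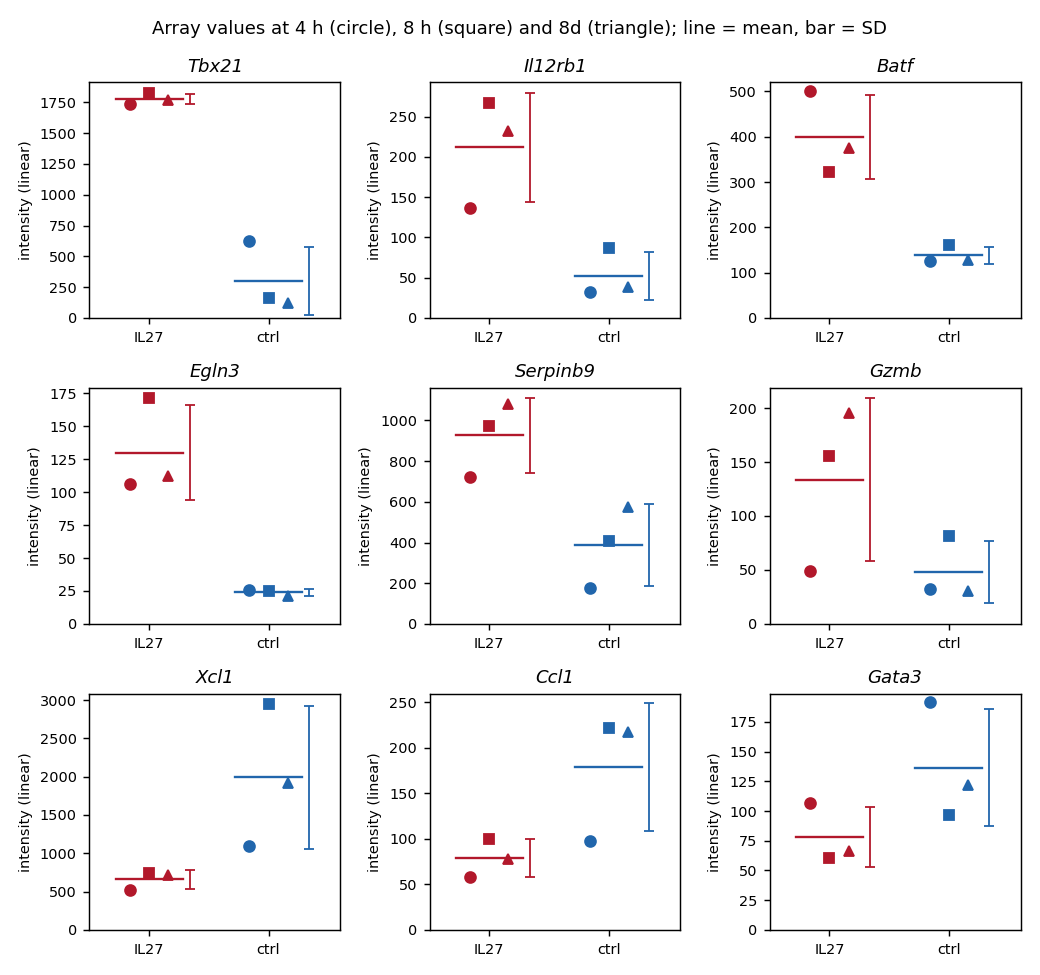
Intensities of 9 called genes on the 6 arrays, IL27 left of ctrl, on a linear axis from 0. Marks are the arrays at 4 h, 8 h and 8d, lines the means and bars the SD. For Tbx21 the IL27 arrays sit between 1736 and 1822 and the ctrl arrays between 121 and 622, and for Gzmb and Gata3 the arms overlap.

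Genes of the Tr1 state and of IL-10 control were read as a list of 25, of which 17 were tested, with 2 higher (Tbx21 and Batf), 1 lower (Gata3) and a median of 0.27. Among all genes tested, 0.408% were called higher and 0.151% lower, with a median of 0.018. Il10 itself lay below the array medians on all 6 arrays, at 14.7, 11.7 and 10.4 in IL27 cells, against 12.5, 10.035 and 11.3 in ctrl cells, and was not tested. Maf, the factor that activates Il10 in such cells, was as dim, at 12.4 to 15.8 in IL27 cells and 11.9 to 14.9 in ctrl cells. Prdm1, Nfil3, Lag3, Cd5l and Havcr2 were too dim to be tested as well. Il21, the cytokine that sustains Tr1 cells, read 133, 37.8 and 39.3 in IL27 cells, against 31.974, 25.0 and 20.6 in ctrl cells, so every IL27 array was above every ctrl array, but the test was not passed (0.70 ± 0.23 SE, adjusted p = 0.288). Ahr, a ligand-activated factor that cooperates with Maf, had 113, 118 and 104 in IL27 cells, against 59.4, 107 and 89.1 in ctrl cells (0.31 ± 0.15 SE, adjusted p = 0.604), with the widest gap at 4 h. Hif1a (0.37 ± 0.10, adjusted p = 0.0864), Jun (0.92), Irf1 (0.66), Irf4 (0.24), Icos (0.40), Il21r (0.27), Egr2 (0.24), Bhlhe40 (-0.33), Eomes (-0.23), Rora (-0.52), Pdcd1 (0.11) and Ctla2a (0.015) were not called.

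Fitted singly, 13 genes (0.196%) were called at 4 h and 19 (0.287%) at 8 h, with a spread drawn from the times that have 2 arrays per arm. At 4 h each arm has 1 array, which is assumed to vary as the duplicated ones do. Batf was called at both times (1.75 ± 0.25 at 4 h and 1.11 ± 0.18 at 8 h). Cd86 (1.14 ± 0.16), Ly6i (0.94 ± 0.18) and Il18bp (0.94 ± 0.17) were called at 4 h, and Tbx21 (3.40 ± 0.39), Il12rb1 (1.63 ± 0.23), Egln3 (1.64 ± 0.30), Gzmb (1.29 ± 0.24) and Xcl1 (-1.66 ± 0.34) at 8 h. The 8 h count was 52 without the ctrl array titled 8 and 9 without the IL27 array titled 8d. A difference between the times is shown for none of these. The 8 h minus 4 h contrast called 2 genes (0.0302%), Ndufa7 (-1.05 ± 0.19 SE, adjusted p = 0.0363) and Ndufb2 (-1.02 ± 0.18 SE, adjusted p = 0.0363), subunits of respiratory complex I. Ndufa7 read 907, 1147 and 1207 in IL27 cells, against 510.4, 1324 and 1506 in ctrl cells. The 4 h ctrl array was the low one, and the 8 h IL27 arrays lay below the 8 h ctrl arrays. Both calls were lost whichever 8 h array was left out (adjusted p 0.0516 to 0.148), and on Mouse430A_2 at 4 h the differences were -0.28 and -0.41, opposite to the HT_MG-430A pair. Of the 27 higher genes, 8 had their largest pair difference at 4 h and 14 their smallest there, and for 13 both 8 h ctrl arrays were lower than the 4 h one.

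Interferon-stimulated genes, which defend cells against viruses and other microbes, were set against the windows on either side, each of 3 pairs. None of 9 interferon-inducible GTPases tested was called at 4-8 h, although all 9 differences were positive (0.11 to 0.99, median 0.59). Over all genes tested, 3686 of 6623 differences were positive, with a median of 0.018. Of the 12 GTPases that the annotation names, Gbp2b, Mx1 and Mx2 were too dim to be tested. All 9 were called higher at 1-2 h, where 184 genes (2.78%) were, and all 9 at 14-16 h, where 122 (1.84%) were. The difference between windows was tested directly: 66 genes (0.997%) had another IL-27 effect at 4-8 h than at 1-2 h, 14 a larger or less negative one and 52 a smaller or more negative one. Of the 52, 49 had been called higher at 1-2 h, a call that shares its 1-2 h values with this contrast. The lists of GTPases, antiviral genes and IRF factors hold 21 of the 52. These were 7 of 9 GTPases, 12 of 36 antiviral genes and 2 of 7 IRF factors tested, against 52 of 6623 genes tested. Against 14-16 h, 11 genes (0.166%) differed, 3 upward and 8 downward. GTPases made up 5 of the 8, out of 9 tested, against 8 of 6623 genes tested. Without either 4 h array the first contrast called 42.

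Gbp2, a guanylate-binding protein that attacks pathogen membranes, shows the course. At 1-2 h it read 1537, 5494 and 6062 in IL27 cells, against 399.6, 564 and 627 in ctrl cells (at 1, 2 and 2d). At 4-8 h it read 7613, 3582 and 5679 in IL27 cells, against 6587, 2886 and 3105 in ctrl cells. At 14-16 h it read 5044, 5323 and 4757 in IL27 cells, against 1593, 862 and 652 in ctrl cells (at 14, 16 and 16d). The ctrl arrays were higher at 4 and 8 h than in both other windows, whereas from 2 h on the IL27 arrays lay between 3582 and 7613 in these windows. The effect at 4-8 h differed from that at 1-2 h by -2.30 ± 0.35 (adjusted p = 0.000116) and from that at 14-16 h by -1.88 ± 0.35 (adjusted p = 0.0136).

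Iigp1, an immunity-related GTPase, had 1509, 3632 and 3195 in IL27 cells, against 119, 203 and 256 in ctrl cells at 1-2 h and 2998, 1416 and 2211 in IL27 cells, against 2204, 688 and 1668 in ctrl cells at 4-8 h. Its difference was 3.60 at 1-2 h, 0.62 at 4-8 h and 2.95 at 14-16 h, and both changes passed the test (-2.98 ± 0.48 SE, adjusted p = 0.000231 and -2.34 ± 0.48 SE, adjusted p = 0.0256). Irgm1 (-1.505 ± 0.35 and -1.59 ± 0.35) and Irgm2 (-1.22 ± 0.30 and -1.44 ± 0.30), regulators of the same GTPase system, were called in both contrasts, Gbp3, Gbp7 and Gbp10 in the first alone and Igtp in the second alone. In all 9 GTPases the mean of the ctrl arrays (log2 scale) was higher at 4-8 h than at 1-2 h (median 1.46) and than at 14-16 h (median 1.98). The mean of the IL27 arrays was higher at 4-8 h than at 1-2 h in 1 of the 9 (median -0.62) and than at 14-16 h in 7 (median 0.21). Calls against 14-16 h leaned on single arrays. Without either 4 h array 2 of the 11 calls remained, without the 8d ctrl array 4 remained, and the adjusted p of Gbp2 reached 0.146 and that of Iigp1 0.244 over the leave-outs, whereas both were called against 1-2 h in all of them.

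**Figure D3:**
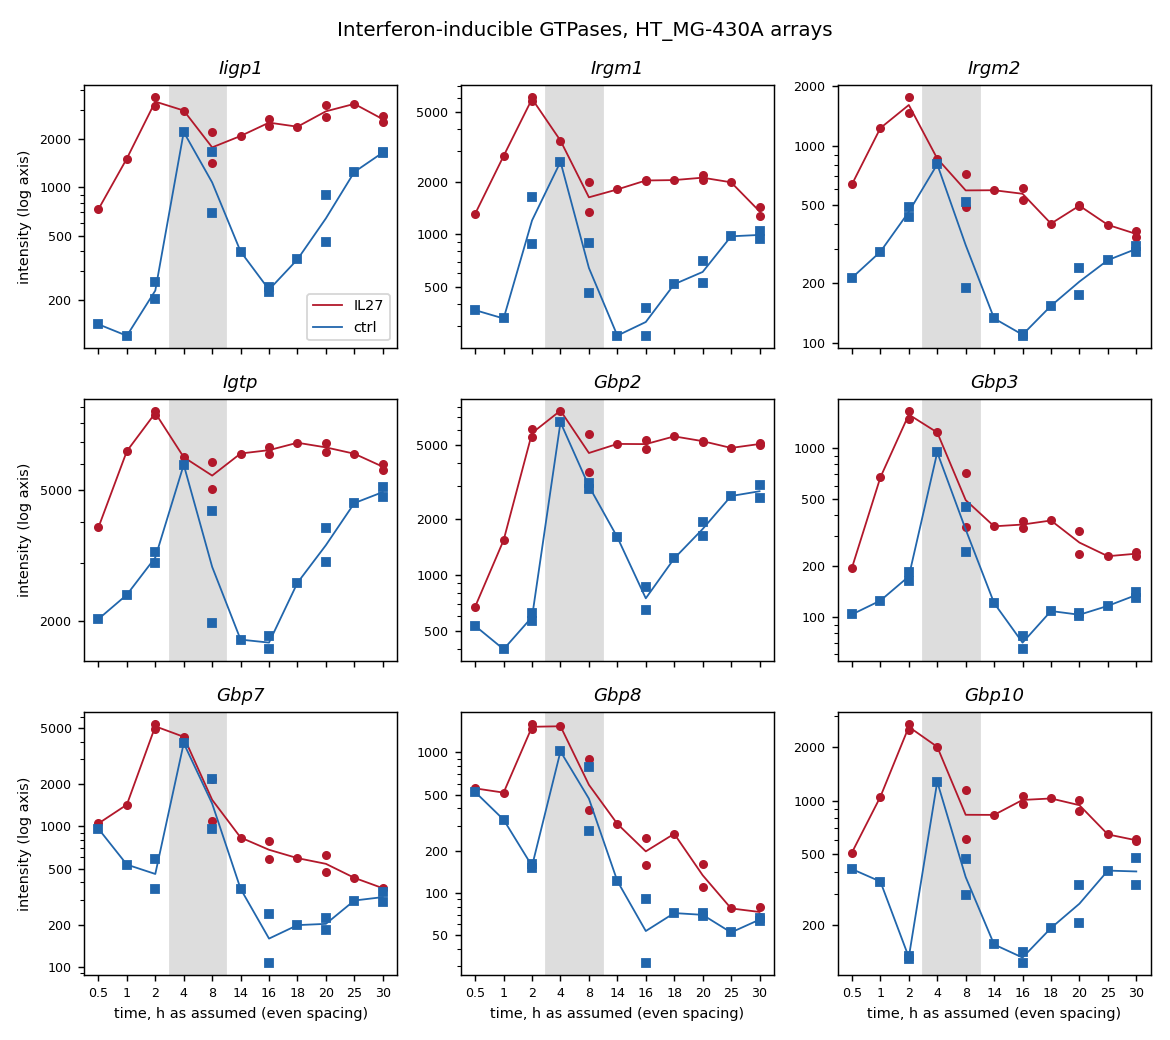
Intensities of the 9 interferon-inducible GTPases tested, on log axes, by time from 0.5 to 30 h on evenly spaced positions, IL27 in red and ctrl in blue, with 1 mark per array and lines through the geometric means. The 4 and 8 h positions are shaded and 12 h is not drawn. The ctrl line has a peak at 4 h in every panel and comes near the IL27 line there.

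Antiviral genes were called mostly at 1-2 h. Of 36 tested, 2 were called higher at 4-8 h (Bst2 and Ifitm1), against 0.408% of all genes tested, and 34 were positive, against 3686 of 6623. The median of the 36 was 0.30, while 23 were called higher at 1-2 h and 4 at 14-16 h. Their effect was smaller than at 1-2 h in 12, and larger in 1, Ifitm1. Ifit1, which binds foreign RNA, had 789, 532 and 528 in IL27 cells, against 77.8, 29.4 and 23.5 in ctrl cells at 1-2 h and 222, 62.2 and 254 in IL27 cells, against 202, 66.2 and 138 in ctrl cells at 4-8 h. Here the IL27 arrays themselves were lower at 4 and 8 h (-2.88 ± 0.31 SE, adjusted p = 7.26e-07). Cxcl10, a chemokine for CXCR3-bearing T cells, read 889, 124 and 325 in IL27 cells, against 424, 137 and 113 in ctrl cells at 4-8 h, with the 8 h pair reversed, and its effect changed by -2.87 ± 0.29. Rtp4 (-2.59 ± 0.41) and Gbp7 (-2.61 ± 0.48) complete the 6 largest such changes. Bst2, tetherin, which holds virions on the cell surface, had 558, 709 and 703 in IL27 cells, against 220.1, 586 and 352 in ctrl cells (0.81 ± 0.18 SE, adjusted p = 0.0233), and lost its call without either 4 h array (0.60 without the 4 h pair, adjusted p = 0.523). Ifitm1, a membrane protein that blocks viral entry, had 72.2, 135 and 115 in IL27 cells, against 51.7, 79.9 and 82.4 in ctrl cells (0.42 ± 0.067 SE, adjusted p = 0.000676), dim values with a small difference that was called against 1-2 h (0.49 ± 0.10) and 14-16 h (0.47 ± 0.10) as well. None of 7 IRF factors was called, with Irf8 at 0.97, Irf1 at 0.66, Irf2 at 0.47, Irf9 at 0.33, Irf4 at 0.24, Irf7 at 0.10 and Irf3 at -0.004; the change from 1-2 h was called for Irf7 (-1.60 ± 0.18) and Irf4 (-1.25 ± 0.30). Among 14 genes of MHC class I and antigen processing, Psmb9, an immunoproteasome subunit, rose, at 2129, 1248 and 1753 in IL27 cells, against 1749, 450.1 and 856 in ctrl cells (0.90 ± 0.18 SE, adjusted p = 0.00680). Its call was lost without the IL27 array titled 8d (0.67, adjusted p = 0.0962), and its difference was 0.56 without the ctrl array titled 8, where it was still called. The 3 probe sets of Psmb9 gave differences from 0.011 to 0.90.

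RefSeq promoters (GRCm38.p6) were searched in the 250 bases before the transcription start for 2 motifs, on both strands: GAS, TTCNNNGAA, the site that STAT dimers bind, which reads alike on both strands, and ISRE, GAAA and GAAA with any 2 bases between them, a site that IRF factors bind. A match is a description of letters, and sites can overlap. Of the 27 genes called higher at 4-8 h, 23 had a promoter entry, 1 of them with GAS (4.35%) and 2 with ISRE (8.70%). Of the 10 called lower, 8 had an entry, 1 with GAS (12.5%) and none with ISRE. Among all 5468 tested genes with an entry, GAS was found in 7.24% and ISRE in 3.40%. The genes whose effect was smaller at 4-8 h than at 1-2 h, a set read after its values were known, had GAS in 8 (20.5%) and ISRE in 13 (33.3%) of 39 entries. Bst2 and Serpinb9 are the called genes with ISRE letters, and Gbp2 and Cxcl10 are shown beside them as genes of the set that changed from 1-2 h. Capitals mark the motif letters, and each sequence runs 5′ to 3′ along its gene's strand to the base before the start. Bst2 lies at chr8:71537473-71537722 on the minus strand, Serpinb9 at chr13:33004291-33004540 on the plus strand, Gbp2 at chr3:142620413-142620662 on the plus strand and Cxcl10 at chr5:92348890-92349139 on the minus strand.
Bst2: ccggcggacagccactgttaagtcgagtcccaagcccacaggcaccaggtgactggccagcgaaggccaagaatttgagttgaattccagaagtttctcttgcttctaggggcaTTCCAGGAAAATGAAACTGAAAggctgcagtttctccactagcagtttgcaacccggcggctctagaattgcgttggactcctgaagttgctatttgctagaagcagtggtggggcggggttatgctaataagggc
Serpinb9: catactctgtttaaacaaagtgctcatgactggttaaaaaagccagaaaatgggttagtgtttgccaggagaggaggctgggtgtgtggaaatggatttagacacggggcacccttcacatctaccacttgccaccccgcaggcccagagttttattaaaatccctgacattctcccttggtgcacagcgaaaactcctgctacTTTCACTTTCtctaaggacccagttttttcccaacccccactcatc
Gbp2: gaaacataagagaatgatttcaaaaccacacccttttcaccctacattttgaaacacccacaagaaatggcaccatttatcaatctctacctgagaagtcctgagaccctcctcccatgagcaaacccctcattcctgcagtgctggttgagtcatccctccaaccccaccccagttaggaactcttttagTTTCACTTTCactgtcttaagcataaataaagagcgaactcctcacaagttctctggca
Cxcl10: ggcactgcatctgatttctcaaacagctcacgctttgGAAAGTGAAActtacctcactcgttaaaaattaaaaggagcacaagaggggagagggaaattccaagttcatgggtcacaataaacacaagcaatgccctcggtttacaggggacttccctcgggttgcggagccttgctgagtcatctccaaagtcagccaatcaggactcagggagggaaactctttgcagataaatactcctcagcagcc
In Bst2 the GAS letters TTCCAGGAA overlap the first of 2 ISRE matches, GAAAATGAAA and GAAACTGAAA, which overlap each other. Serpinb9 and Gbp2 hold the same ISRE letters, TTTCACTTTC, read on the opposite strand.

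Outside the interferon lists, the window contrasts named other genes. Il12rb1 was the gene whose effect grew most from 1-2 h (1.54 ± 0.24 SE, adjusted p = 0.000214). At 1-2 h it read 17.3, 15.2 and 14.5 in IL27 cells, against 13.7, 20.2 and 12.0 in ctrl cells, below the array medians in both arms. Scd2, a fatty acid desaturase (1.12 ± 0.26), Sit1, an inhibitory adaptor of the T-cell receptor (0.87 ± 0.21), Kcnn4, a calcium-activated potassium channel (0.85 ± 0.14), Zbtb7b, the CD4 lineage factor ThPOK (0.73 ± 0.18), and Arrb2, a beta-arrestin (0.71 ± 0.17), had differences at 1-2 h of -1.17, -1.001, -0.76, -0.62 and -0.52, and lay between -0.13 and 0.18 at 4-8 h. Of these, Kcnn4 kept its call in every leave-out, and the highest adjusted p of the other 4 lay between 0.101 and 0.141. Ccl1 (-0.82 ± 0.16), Cd160 (-0.73 ± 0.17) and Mgll (-0.44 ± 0.10) fell further than at 1-2 h, where none of them was called. Against 14-16 h, Ctla4, an inhibitory receptor, had 66.5, 80.1 and 70.8 in IL27 cells, against 134, 260.1 and 284 in ctrl cells at 14-16 h and 102, 82.5 and 63.2 in IL27 cells, against 57.1, 67.0 and 31.9 in ctrl cells at 4-8 h, a change of 1.71 ± 0.36 (SE, adjusted p = 0.0341) that was lost without either 4 h array, among others. Trio, a GTPase exchange factor (0.78 ± 0.16), differed upward as well, a call lost in 6 of 9 leave-outs. Its 2 probe sets gave differences of opposite sign at 4-8 h (-0.099 and 0.26). Tmem35a, a chaperone of acetylcholine receptors in neurons, had 378, 257 and 361 in IL27 cells, against 13.4, 8.74 and 11.5 in ctrl cells at 14-16 h and 21.8, 78.6 and 48.8 in IL27 cells, against 12.3, 10.7 and 9.66 in ctrl cells at 4-8 h (-2.19 ± 0.31 SE, adjusted p = 0.000555), with all IL27 arrays above the ctrl arrays in both windows. It was bright enough to be tested only through the IL27 arrays titled 8 and 8d, so its separation at 4-8 h is partly a result of that choice. Of 9 leave-outs it was tested in 5, and called in each. Sema7a also had a larger effect at 14-16 h (-1.42 ± 0.29), a call lost in 4 of 9 leave-outs.

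The calls of 4-8 h were then looked up in the other windows, each with its own arrays and controls. At 1-2 h, 14 of the 27 higher genes were called higher and 1 of the 10 lower genes, Gata3, was called lower (93 genes, 1.40%, were). At 14-16 h these were 20 and 8 (background of lower calls 99 genes, 1.49%), and at 18-20 h 18 and 7 (127 genes, 1.92%, higher and 147, 2.22%, lower). The counts were 9 and 5 at 25-30 h (1.10% and 1.45%), 10 and 4 at 36-42 h (1.54% and 1.81%), 7 and 3 at 48-54 h (3.10% and 3.50%) and 8 and 4 at 60-72 h (9.42% and 12.8%). Called the opposite way were Serpinb9 at 48-54 h, and Serpinb9 (-1.22) and Bst2 (-0.90) at 60-72 h. Tbx21 had 3.48 at 14-16 h and 0.43 at 60-72 h, where it was not called. Egln3 was 3.14 and 1.34 in these windows, called in both. Lad1 was -2.04 and -3.35, and Gata3 -0.76 and -1.33, all called. Cd86, D030056L22Rik, Ly6i, Il18bp, Ifitm1 and Mpeg1 were called in no later window. The 12 h window was left out of this count, since its ctrl array stood apart from the rest (highest correlation with any array 0.850, against 0.977 or more for the others).

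**Figure D4:**
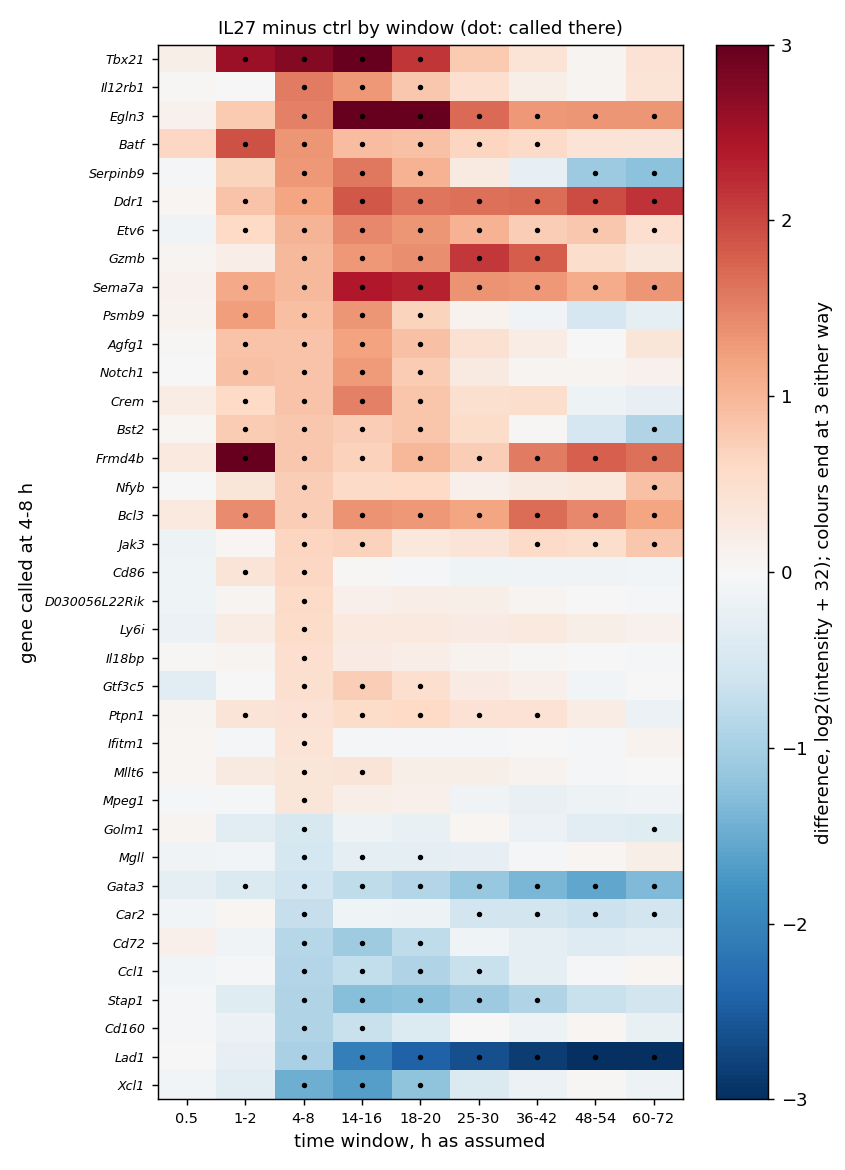
Differences in log2(intensity + 32), IL27 minus ctrl, for the 37 genes called at 4-8 h (rows, in the order of that window) by time window (columns, 12 h not drawn), red higher and blue lower, with a dot where the gene was called. Tbx21 is red from 1-2 to 18-20 h, Lad1 turns deeper blue from 4-8 h to 60-72 h, and Serpinb9 and Bst2 turn blue late.

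The Mouse430A_2 pair at 4 h has 1 array per arm and no test, and the labels do not say whether it was made from the RNA of the HT_MG-430A pair. Of the 37 called genes, 35 had the sign of the 4-8 h difference there, 26 of 27 higher and 9 of 10 lower, against 53.6% of all genes tested. The exceptions were Ifitm1 (-0.053) and Gata3 (0.034). A positive difference was found on this pair in 1822 of 6623 genes tested. A negative sign was thus the common one, and the signs of the lower genes carry less weight. The median over all genes of this pair was -0.16, so each difference stands against that shift. Tbx21 read 2971 in IL27 cells, against 529 in ctrl cells (2.42). Il12rb1 read 205 in IL27 cells, against 51.6 in ctrl cells (1.501), and Egln3 483 in IL27 cells, against 82.7 in ctrl cells (2.17). These were near or above the values of the HT_MG-430A pair at 4 h (1.43, 1.40 and 1.26). The other genes called higher by 2-fold or more were smaller on Mouse430A_2 than in that pair. Batf had 1.01 against 1.75, Serpinb9 1.69 against 1.85, Ddr1 0.85 against 0.94 and Etv6 1.05 against 1.31.

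Interferon genes parted between the array types at 4 h. All 9 GTPases had a larger difference on Mouse430A_2 (0.98 to 2.29, median 1.49) than in the HT_MG-430A pair (0.076 to 0.64, median 0.38). Iigp1 read 5442 in IL27 cells, against 1087 in ctrl cells on Mouse430A_2, and Gbp2 11042 in IL27 cells, against 3909 in ctrl cells, where the HT_MG-430A arrays had 7613 in IL27 cells, against 6587 in ctrl cells. Of the 36 antiviral genes 28 were larger on Mouse430A_2 (medians 0.76 and 0.40), and of 7 IRF factors 5 (0.71 and 0.090). Over all genes tested, 2097 of 6623 were larger on Mouse430A_2. Levels were normalized apart in these tables, so the ctrl arrays themselves cannot be compared, and what parts the pairs was not tested.

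**Figure D5:**
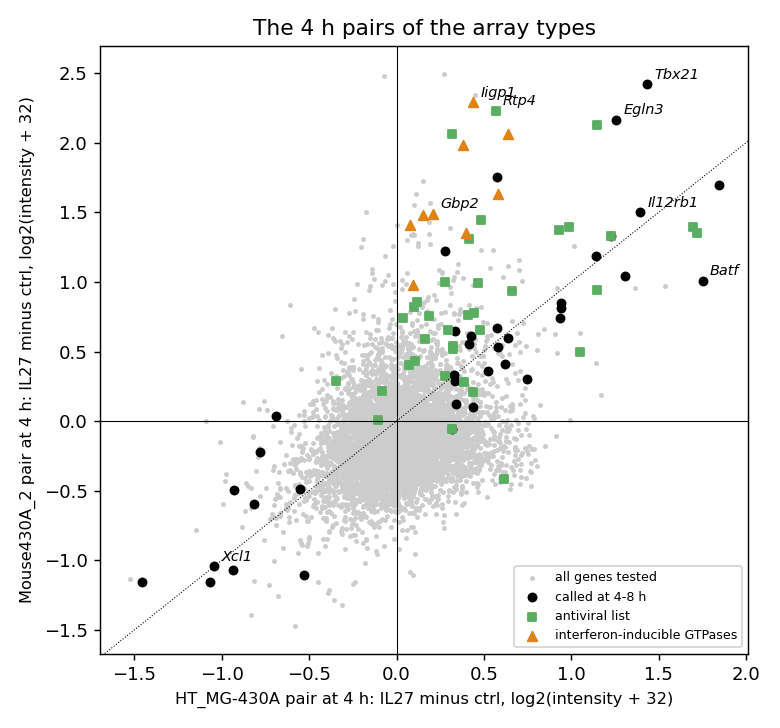
Differences in log2(intensity + 32) at 4 h, IL27 minus ctrl, with the HT_MG-430A pair on the x axis and the Mouse430A_2 pair on the y axis. Each point is a gene, and the dotted line marks equal differences. Of the 37 called genes 35 have the sign of their 4-8 h difference on the y axis, and the 9 GTPases lie above the line, between 0.98 and 2.29 on the y axis.

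Other lists held few or no called genes, where 0.559% of all genes tested were called. None was called among 9 EGR and NR4A factors (median -0.19), 21 naive T-cell factors (-0.15), 20 genes of the T-cell receptor complex and its signalling (-0.026), 20 cell cycle genes (-0.038), 26 ribosome biogenesis genes (-0.0084), 22 cholesterol genes (-0.047) or 15 helper effector cytokines (0.11). In the last, Lif (0.89), Ifng (0.66) and Il4 (0.26) did not pass, with Ifng at 437, 279.6 and 440.0 in IL27 cells, against 250.2, 221 and 215 in ctrl cells. Egln3 was the 1 gene called among 19 of glycolysis and hypoxia (median 0.065), and Cd86 and Cd160 were called, in opposite directions, among 17 co-stimulatory and co-inhibitory receptors (0.11). Among markers of other cells, Mpeg1, a pore-forming protein of macrophages, rose, at 63.3, 31.3 and 46.0 in IL27 cells, against 43.6, 17.8 and 26.7 in ctrl cells (0.36 ± 0.078 SE, adjusted p = 0.0155; call lost in 5 of 8 leave-outs), 1 of 4 myeloid markers tested, while 13 others of that list, Cd14, Csf1r and Itgax among them, were below the filter; the summed level of the list was 924.9 to 2359 in IL27 cells and 1036 to 1775 in ctrl cells. Of the B-cell markers 3 were tested and none was called, with 2 of the 3 differences positive and Cd79a and Pax5 below the filter. Ighm was lower in each pair, at 597, 486 and 943 in IL27 cells, against 731, 684 and 1009 in ctrl cells. Cd72, a B-cell co-receptor outside that list, was called lower, as given above. Car2, of the erythroid list, fell, with Hba-a1, Alas2 and Pf4 below the filter. The part of such cells in the results was not tested.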

How the data were processed

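RNA of ctrl and IL27 cells was hybridised to Affymetrix arrays. The deposited intensity values are linear and were made with MAS5, per the submitters' processing notes. The medians of the 52 HT_MG-430A arrays are close to each other, so the table was used as deposited, without another normalization, and Mouse430A_2 values were read within their own table. Of 22626 probe sets, 20173 had 1 gene in the platform annotation, for 12291 genes. A gene was read from its probe set brightest over the 52 arrays, and tested if above its array's median on 2 or more of the 6 arrays, which left 6623.

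Values were log2(intensity + 32). limma 3.58.1 (R 4.3.3) fitted all 52 arrays with time as a factor and 1 IL27 coefficient per time window (eBayes with trend, Benjamini-Hochberg over all genes, called at an adjusted p under 0.05). This fit had 24 residual degrees of freedom, with changes of the effect within a window counted as spread. A second fit with arm-by-time means (16 residual degrees of freedom) gave 4 h, 8 h and their difference. The scripts were tested on simulated data. Genes named are the largest differences each way among called genes (up to 15 at 4-8 h, 10 for 8 h minus 4 h and 6 for each window contrast), the list members with the smallest adjusted p, and members of the receptor, SOCS, IRF and Tr1 lists. Other genes, such as Mpeg1, Car2 and the markers, were named after their values were seen. The members and lists were chosen with earlier results of these data known. Promoter sequences are RefSeq's, of GRCm38.p6. Alternatives changed the pseudocount, filter, normalization, probe set rule, model and arrays.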

Additional observations from a re-analysis of the deposited data

Results flagged for a closer look

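Each result here is a difference between the IL-27 effects of 2 times that passed the limma test of that difference itself, on the log2(intensity + 32) scale. Between 8 h and 4 h, the effect changed by -1.05 for Ndufa7 and -1.02 for Ndufb2.

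The effect at 4-8 h minus that at 1-2 h was 1.54 for Il12rb1. It was 1.12 for Scd2, 0.87 for Sit1, 0.85 for Kcnn4, 0.73 for Zbtb7b and 0.71 for Arrb2, whose effects were negative at 1-2 h and nearer 0 at 4-8 h. It changed by -2.98 for Iigp1, -2.88 for Ifit1, -2.87 for Cxcl10, -2.61 for Gbp7, -2.59 for Rtp4 and -2.30 for Gbp2.

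At 4-8 h minus 14-16 h, the change was 1.71 for Ctla4, 0.78 for Trio and 0.47 for Ifitm1. It was -2.34 for Iigp1, -2.19 for Tmem35a, -1.88 for Gbp2, -1.59 for Irgm1, -1.44 for Irgm2 and -1.42 for Sema7a.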

How the results depend on the processing

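No called gene changed direction under the 21 alternatives, and none of the 37 kept its call in all of them. The 4-8 h count of 37 was 0 with the 6 arrays alone (adjusted p of the 37 from 0.0774 to 0.999, 241 genes at an unadjusted p under 0.05) and 21 to 235 over the leave-outs. The 4 h count of 13 was 8 with a pseudocount of 1, 5 with eBayes without trend, and 16 to 23 over the leave-outs, and the 8 h count of 19 was 4 to 52. The 8 h minus 4 h count of 2 was 1 with quantile normalization, the mean of all probe sets or no trend. It was 0 in limma with a pseudocount of 100 (227 at an unadjusted p under 0.05) or no filter (363), and 0 in each of the 6 leave-outs (194 to 416). The count of 66 against 1-2 h was 41 to 89 over the leave-outs and 90 without the arrays of suffix d. The count of 11 against 14-16 h was 7 with a pseudocount of 100 or the mean of single-time contrasts, 2 to 30 over the leave-outs, and 0 without the arrays of suffix d (303 at an unadjusted p under 0.05), an alternative chosen after seeing the data. Same-suffix arrays correlated in their deviations at over 0.1 in 7 of 8 times (0.64 at 8 h, highest 0.77 at 2 h) but not at 30 h (-0.012). As every time had to pass 0.1, the suffix was not taken to pair them. The IL27 and ctrl arrays titled 8 nevertheless correlated at 0.993, against 0.978 for the IL27 arrays titled 8 and 8d. Variation shared by a suffix pair therefore stays in the spread of the main fit. With the suffix as a replicate block the counts were 119 at 4-8 h, 98 with the 6 arrays alone, 186 against 1-2 h, 40 against 14-16 h and 0 for 8 h minus 4 h (244 at an unadjusted p under 0.05). Dim genes, near the array medians, limit what could be called.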
